A study of Homo sapiens with 6 samples.

Results

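The cadherin and protocadherin genes were followed in ONS-76 cells after knockdown of KDM1A. Members were chosen by gene symbol, as the probe sets that the platform annotation maps to a single symbol made of CDH or PCDH and a number, or beginning with PCDHA, PCDHB or PCDHG. This gave 119 probe sets for 67 genes, of 19775 genes that a probe set names alone. For each gene the brightest probe set, by its mean over the 6 arrays, stood for the gene. The members shown with every probe set were picked by their calls in this same comparison, so their values and the limma adjusted p-values that picked them are a description and no separate test. By family these were 4 type I and 13 type II classical cadherins, 4 other cadherins, 10 non-clustered protocadherins and 36 clustered protocadherins, of which 6 belong to the alpha, 17 to the beta and 13 to the gamma cluster. All 67 symbols were found in RefSeq, 3 of them as pseudogenes. A further 23 protein-coding genes of the same symbols, 20 of them clustered, had no probe set of their own and were not analysed here.

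Cadherins are calcium-dependent adhesion proteins that bind like molecules on the neighbouring cell. Classical cadherins hold beta-catenin, plakoglobin and p120-catenin on their cytoplasmic tails and are tied through alpha-catenin to actin. Type I and type II cadherins are told apart by the way their outermost domains swap strands. Protocadherins lack the catenin-binding tail. The clustered protocadherins are encoded in tandem arrays of variable exons, each with a promoter of its own, and neurons use few of these promoters per cell, a choice in which CTCF and cohesin take part. In the nervous system cadherins sort cells into layers and nuclei, and a change from CDH1 to CDH2 is a classical mark of cells that leave an epithelium.

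ONS-76 is an established human medulloblastoma line. RNA came from 3 cultures transfected with an siRNA directed against KDM1A (siKDM1A) and from 3 cultures that received the transfection reagent without siRNA (control), and the methods describe independent transfections. In the sample labels the target is written as KDM5A together with LSD1, an older name of KDM1A, and harvest is set at 48 h, whereas the study's own account of the arrays gives a later time. Only 1 siRNA in 1 cell line was used, so loss of KDM1A and delivery of siRNA cannot be told apart. In such bulk RNA, fewer cells that carry a transcript and less of it per cell cannot be told apart either. The deposited values are log2 signals after robust multi-array averaging (RMA), on which 1 unit is a 2-fold difference. Levels of different probe sets depend on their probes and were not ranked against each other as amounts of RNA.

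KDM1A read 6.25, 6.34 and 6.31 on the siKDM1A arrays, against 9.50, 9.57 and 9.49 on the control arrays. Its groups lay far apart, with a log2 fold change of -3.22 (adjusted p = 7.12e-07, limma). KDM5A, the name in the labels, was measured by 5 probe sets, of which 0 passed. All siKDM1A arrays lay below all control arrays on its brightest (202040_s_at, log2 fold change -0.27, adjusted p = 0.138, limma) and on 226371_at (-0.39, adjusted p = 0.0563, limma), and the groups overlapped on the other 3. Array medians lay between 5.09 and 5.16, and correlations between pairs of arrays between 0.991 and 0.998. Of 12 measured markers of medulloblastoma and neural progenitors, VIM, SOX2, SOX9, TUBB3 and ZIC2 lay above the upper quartile of every array, whereas OTX2 lay below the lower quartile (3.63 to 3.70) and NEUROD1 had no probe set of its own. SOX2, ZIC1 and ZIC2 fell, and 9 of the 12 did not pass. Their mean level ranged from 7.39 to 7.46 on the siKDM1A arrays, against 7.47 to 7.57 on the control arrays. Among markers of other cells, the endothelial gene PECAM1 rose and the other 2 of 3 endothelial markers did not pass, with a mean level of 6.40 to 6.57 on the siKDM1A arrays, against 6.42 to 6.48 on the control arrays. None of 4 epithelial, 3 haematopoietic and 4 fibroblast markers passed limma or the methods' ANOVA after adjustment, and 2, 0 and 0 of them had an unadjusted limma p under 0.05. Of all genes, 9.75% were higher and 14.4% lower at that unadjusted p. The 4 epithelial markers all had fold changes above 0, 0.21 on the log2 scale at the median, and their mean level was 8.01 to 8.10 on the siKDM1A arrays, against 7.77 to 7.89 on the control arrays. EPCAM lay below the lower quartile, and KRT8 and KRT18 lay above the upper one. The members CDH1 and CDH5 are themselves among the epithelial and endothelial markers. The part of these shifts in the results on cadherins was not tested.

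Of the 67 members, 5 rose, 1 fell and 61 did not pass limma at an adjusted p of 0.05. CDH3, CDH6, CDH18, CDH23 and PCDH9 rose, and CDH24 fell. The share that rose, 7.46%, stood beside 3.45% over all genes at 1 probe set each, and the share that fell, 1.49%, beside 5.46%. Over all 119 member probe sets, 10 were higher and 2 lower, beside 2.18% and 3.73% of all probe sets tested. Before adjustment, 11 members (16.4%) were higher and 2 (2.99%) lower at a p of 0.05, beside 9.75% and 14.4% of all genes. The siKDM1A arrays lay entirely above the control arrays for 17 members (25.4%) and entirely below for 1 (1.49%), beside 13.5% and 18.1% of all genes. The members' median log2 fold change was 0.10, and 54 of 67 were above 0, whereas the median over all genes was 0.01 and 51.7% were above 0. Of the 6 calls, 4 were of classical cadherins, 1 of the other cadherins (CDH23) and 1 of the non-clustered protocadherins (PCDH9), and no clustered member passed. The count of members that rose was 3 without siKDM1A a, siKDM1A b, control a or control b and 2 without control c, and CDH24 no longer passed without siKDM1A b, siKDM1A c, control a or control c. The one-way ANOVA that the methods name, after the same adjustment, called 1 member by its brightest probe set, CDH23. Probe set 214803_at of CDH6, not the brightest of that gene, passed it as well (adjusted p = 0.0340, ANOVA).

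**Figure D1:**
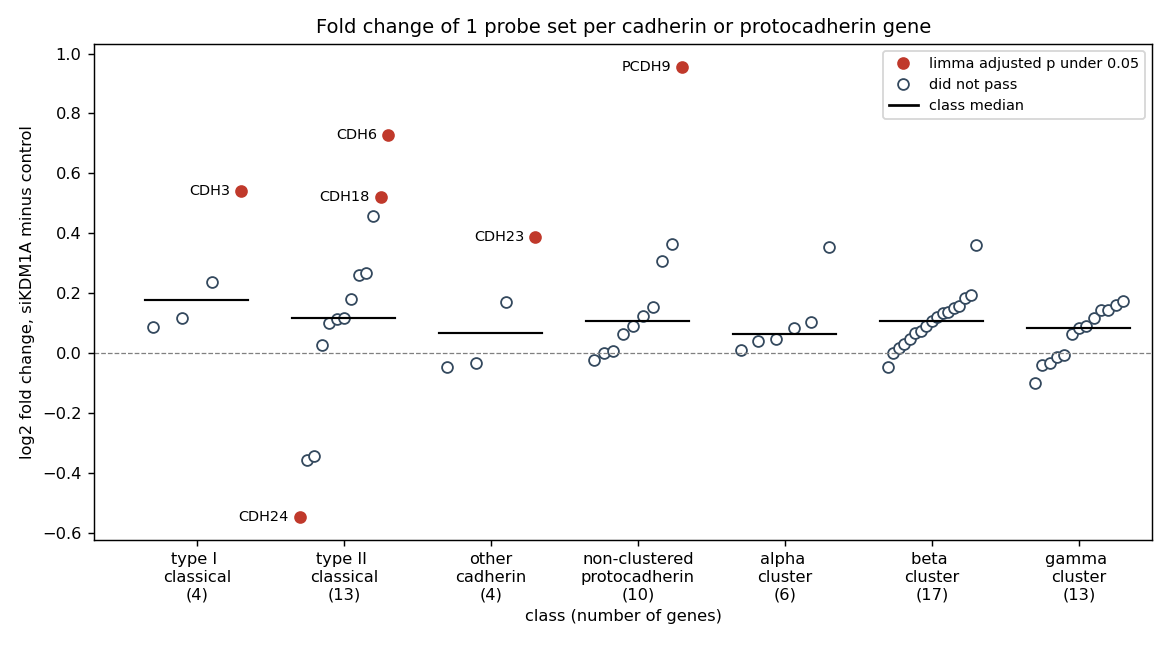
Log2 fold change (siKDM1A minus control, vertical axis) of the brightest probe set of each of 67 genes, by class (horizontal axis, with the number of genes). Filled points passed limma at an adjusted p under 0.05 and are named, open points did not pass, and horizontal lines are class medians; the 3 clusters on the right hold open points only.

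The type I cadherins include the main epithelial and neural cadherins. CDH2, N-cadherin, is the chief classical cadherin of neural tissue. Its brightest probe set (203440_at) read 11.96, 11.88 and 11.71 on the siKDM1A arrays, against 11.76, 11.50 and 11.59 on the control arrays. The groups overlapped, all 6 values lay above the upper quartile of their arrays (7.05 to 7.16), and the log2 fold change was 0.24 with a 95% interval from -0.00 to 0.47 (adjusted p = 0.267, limma). The other CDH2 probe set (203441_s_at) read 9.90, 10.38 and 10.06 in siKDM1A cells and 9.36, 9.82 and 9.60 in control cells. Here the groups did not overlap, and the log2 fold change was 0.52 ± 0.15 (SE), which did not pass (adjusted p = 0.0836, limma). Averaged over both probe sets, CDH2 rose in the fit of gene means (log2 fold change 0.38, adjusted p = 0.0365, limma). That was the only 1 of 14 alternatives to call it.

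CDH1, E-cadherin, is the cadherin of epithelial junctions. It read 6.09, 5.83 and 5.92 on the siKDM1A arrays, against 5.71, 5.75 and 6.03 on the control arrays. The groups overlapped, with a log2 fold change of 0.12 and an interval from -0.14 to 0.38, and the dimmer CDH1 probe set gave 0.18 (adjusted p = 0.651 and 0.576, limma). CDH3, P-cadherin, is a cadherin of basal epithelial layers and lies beside CDH1, with no coding gene between them in RefSeq. It read 6.06, 5.77 and 6.16 in siKDM1A cells, against 5.65, 5.43 and 5.29 in control cells. All siKDM1A values were the higher ones, and CDH3 rose 1.45-fold (log2 fold change 0.54 ± 0.13, SE, adjusted p = 0.0428, limma). This call was lost without siKDM1A a, siKDM1A c, control b or control c, where the adjusted p was 0.121, 0.113, 0.127 and 0.178. CDH3 lay just inside the threshold. The difference between the changes of CDH1 and CDH3 was not tested. CDH15, the muscle cadherin, had a log2 fold change of 0.09.

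CDH6, K-cadherin, is a type II cadherin of developing kidney and brain and was the member with the most calls. It has 6 probe sets, of which 4 rose and 2 did not pass. The brightest (210601_at) read 6.52, 6.50 and 6.59 on the siKDM1A arrays, against 5.64, 5.85 and 5.94 on the control arrays. The siKDM1A arrays differed little among themselves and lay above every control array, and the signal rose 1.66-fold (log2 fold change 0.73 ± 0.10, SE, adjusted p = 0.00336, limma). Probe set 205532_s_at, with almost the same mean, read 7.16, 7.40 and 6.73 in siKDM1A cells, against 4.93, 5.16 and 5.64 in control cells. Its log2 fold change of 1.85 ± 0.20 was the largest among all member probe sets, a 3.61-fold rise (adjusted p = 0.00117, limma). The spread within each group was also wider here, and siKDM1A c was the lowest of its group where control c was the highest of its own.

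Probe set 214803_at of CDH6 read 6.08, 6.30 and 6.16 on the siKDM1A arrays, against 4.88, 4.58 and 4.75 on the control arrays. It had the smallest adjusted p of all members, with a 2.72-fold rise (log2 fold change 1.44 ± 0.11, SE, adjusted p = 0.000165, limma). Probe set 205533_s_at read 4.92, 5.42 and 4.79 in siKDM1A cells, against 3.56, 3.45 and 4.07 in control cells. It rose 2.55-fold (adjusted p = 0.00432, limma), from control values that lay partly below the lower quartile of the arrays. Probe set 210602_s_at read 5.15, 6.05 and 5.76 in siKDM1A cells, against 4.58, 5.18 and 5.10 in control cells. The lowest siKDM1A value lay below the highest control value, and the log2 fold change of 0.70 did not pass (adjusted p = 0.122, limma). Probe set 232631_at had a log2 fold change of 0.40 (adjusted p = 0.113, limma), with groups that did not overlap. The 6 fold changes thus had 1 direction and spanned 0.40 to 1.85 on the log2 scale. All 4 called probe sets of CDH6 kept their call when any 1 array was left out. By the methods' ANOVA after adjustment, 214803_at passed (adjusted p = 0.0340, ANOVA). Probe sets 210601_at, 205532_s_at and 205533_s_at did not (adjusted p = 0.0690, 0.0907 and 0.132, ANOVA).

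**Figure D2:**
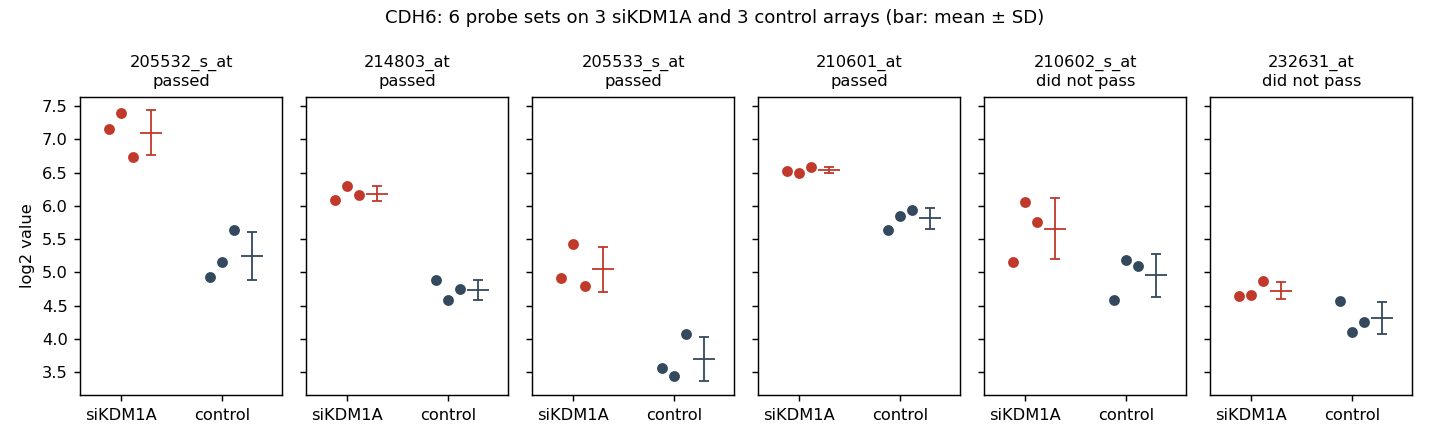
Log2 values (vertical axis) of the 6 probe sets of CDH6 on the 3 siKDM1A arrays (left in each panel) and the 3 control arrays (right), with the mean and SD of each group beside the points. The 4 panels on the left hold the probe sets that passed, from a log2 fold change of 1.85 on 205532_s_at to 0.73 on 210601_at.

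CDH18 is a type II cadherin of the central nervous system. Its only probe set read 5.11, 5.24 and 5.29 on the siKDM1A arrays, against 4.59, 4.92 and 4.58 on the control arrays. The groups did not overlap, control b being the highest of its group, and CDH18 rose 1.43-fold (log2 fold change 0.52 ± 0.11, SE, adjusted p = 0.0276, limma). The call was lost without siKDM1A b, siKDM1A c, control a or control c, with adjusted p of 0.0754, 0.0753, 0.101 and 0.129. CDH10, another type II cadherin of brain, lay just outside the threshold. It read 4.26, 4.52 and 4.28 in siKDM1A cells, against 3.81, 3.79 and 4.10 in control cells. Its groups did not overlap either, and its log2 fold change was 0.46 (adjusted p = 0.0526, limma), the largest among members without a called probe set. In RefSeq CDH18 is followed by CDH12, and CDH10 by CDH9, in both pairs with no coding gene between. CDH9 and CDH12 lay below the lower quartile of all 6 arrays, where differences are compressed. Their log2 fold changes of 0.10 and 0.11 did not pass (adjusted p = 0.605 and 0.614, limma).

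CDH24 and CDH8 are type II cadherins too, and each had a probe set that fell. CDH24 (1553166_at) read 6.33, 6.21 and 5.95 on the siKDM1A arrays, against 6.73, 6.57 and 6.83 on the control arrays. Every siKDM1A value was below every control value, and the signal fell by 0.55 on the log2 scale (SE 0.12, adjusted p = 0.0282, limma). Without siKDM1A b, siKDM1A c, control a or control c the adjusted p was 0.0621, 0.0622, 0.0879 and 0.130. The other CDH24 probe set (230157_at) had a log2 fold change of -0.07, with an interval from -0.33 to 0.19 and overlapping groups.

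For CDH8, which is found at synapses in the brain, probe set 241500_at read 4.30, 4.75 and 4.43 in siKDM1A cells, against 5.31, 5.29 and 5.22 in control cells. The groups were well apart, and this probe set fell by 0.78 on the log2 scale (SE 0.12, adjusted p = 0.00534, limma). That call was kept without any 1 array but not by the methods' ANOVA (adjusted p = 0.105, ANOVA). The brightest CDH8 probe set (217574_at) read 6.30, 6.49 and 5.45 in siKDM1A cells, against 6.17, 6.56 and 6.59 in control cells. Only siKDM1A c was low there, and the log2 fold change of -0.36 had an interval from -0.90 to 0.19. The other 2 probe sets gave 0.02 and -0.24 (adjusted p = 0.953 and 0.402, limma). CDH8 therefore counted among the members that did not pass.

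The brightest type II signals came from CDH19, a cadherin of Schwann cell precursors, and CDH11, a cadherin of bone and mesenchyme. CDH19 (206898_at) read 10.31, 10.48 and 10.20 on the siKDM1A arrays, against 10.14, 10.18 and 10.13 on the control arrays. The groups just failed to overlap, and the log2 fold change of 0.18 did not pass (adjusted p = 0.353, limma). The dimmer CDH19 probe sets gave 0.58 and 0.41 (adjusted p = 0.204 and 0.0873, limma). The first of these (1555403_a_at) read 7.41, 8.22 and 7.82 in siKDM1A cells, against 6.84, 7.62 and 7.26 in control cells. Its groups overlapped, although each siKDM1A value lay above the control value of the same letter. CDH11 (207173_x_at) read 10.23, 10.39 and 9.88 in siKDM1A cells, against 9.94, 9.86 and 9.91 in control cells. Its groups overlapped through siKDM1A c alone, and its 4 probe sets had log2 fold changes from 0.11 to 0.49. CDH5, the cadherin of endothelium, read 7.51, 7.17 and 7.03 in siKDM1A cells, against 7.70, 7.42 and 7.62 in control cells. The groups overlapped, and its log2 fold change was -0.34 (adjusted p = 0.202, limma), beside a log2 fold change of 0.35 for PECAM1, the endothelial marker that rose. Of the 13 type II genes, 10 had a fold change above 0 and 3 below.

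Among the 4 other cadherins, CDH23, whose protein forms the tip links of hair cells, rose on 1 of 4 probe sets. That probe set (232845_at), its brightest, read 5.80, 5.76 and 5.75 on the siKDM1A arrays, against 5.41, 5.32 and 5.42 on the control arrays. The groups were tight and apart, with a 1.31-fold rise (log2 fold change 0.39 ± 0.08, SE, adjusted p = 0.0242, limma). The remaining 3 probe sets had log2 fold changes of 0.24, 0.08 and -0.03, and averaged over all 4 the gene did not pass (0.17, adjusted p = 0.293, limma). The call was also lost without each single array other than siKDM1A c, with adjusted p of 0.0694 without siKDM1A a, 0.0573 without siKDM1A b, 0.0707 without control a, 0.106 without control b and 0.0911 without control c. CDH16, the kidney cadherin, and CDH26 had log2 fold changes of 0.17 and -0.03. CDH17, the liver-intestine cadherin, was under the lower quartile on all arrays.

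The non-clustered protocadherins are single genes, most of them of the delta type, and are known for roles in neuronal migration and circuit formation. PCDH9, a delta-1 protocadherin, had the largest fold change of any representing probe set. It (219737_s_at) read 6.17, 6.31 and 5.72 on the siKDM1A arrays, against 5.12, 5.02 and 5.18 on the control arrays. The groups were apart, siKDM1A c being the lowest of its group, and PCDH9 rose 1.94-fold (log2 fold change 0.96 ± 0.14, SE, adjusted p = 0.00522, limma). Without single arrays the log2 fold change lay between 0.83 and 1.13 and every such fit called it. A dimmer probe set (238919_at) read 3.74, 3.27 and 3.24 in siKDM1A cells, against 2.77, 2.92 and 2.52 in control cells. It passed as well (log2 fold change 0.68, adjusted p = 0.0316, limma), although its control values lay below the lower quartile, and it did not pass without siKDM1A a, control a or control c (adjusted p of 0.0663, 0.0837 and 0.135). The other 2 PCDH9 probe sets had log2 fold changes of 0.31 and -0.06, the second from a signal below the lower quartile. The mean of all 4 gave 0.47 and passed in a fit of gene means.

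PCDH17, a delta-2 protocadherin of synapses, had 3 probe sets with fold changes above 0, of which the dimmest passed. Probe set 228863_at read 4.33, 4.33 and 4.03 on the siKDM1A arrays, against 3.58, 3.75 and 3.23 on the control arrays. The groups did not overlap, and it rose 1.64-fold (adjusted p = 0.0208, limma), a call lost without siKDM1A a, siKDM1A b, control a or control c (adjusted p of 0.0706, 0.0679, 0.0541 and 0.0722). The brightest (205656_at) read 4.81, 5.07 and 4.86 in siKDM1A cells, against 4.55, 4.59 and 4.52 in control cells. These groups did not overlap, but the log2 fold change of 0.37 did not pass (adjusted p = 0.0576, limma), so the gene was not counted as called.

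PCDH7, a delta-1 protocadherin and the brightest of this class, had probe sets that pointed in opposite directions. Probe set 205534_at read 9.87, 9.91 and 9.74 on the siKDM1A arrays, against 9.64, 9.43 and 9.53 on the control arrays. Probe set 228640_at of the same gene read 8.38, 8.51 and 8.55 in siKDM1A cells, against 8.76, 8.78 and 8.77 in control cells. The groups did not overlap on either, with log2 fold changes of 0.31 and -0.29, and neither passed (adjusted p = 0.101 and 0.0856, limma). PCDH18 and PCDH12, the other 2 of the 3 brightest in this class, had log2 fold changes of 0.12 and 0.06 with overlapping groups. PCDH8 and PCDH15 were under the lower quartile on all arrays.

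**Figure D3:**
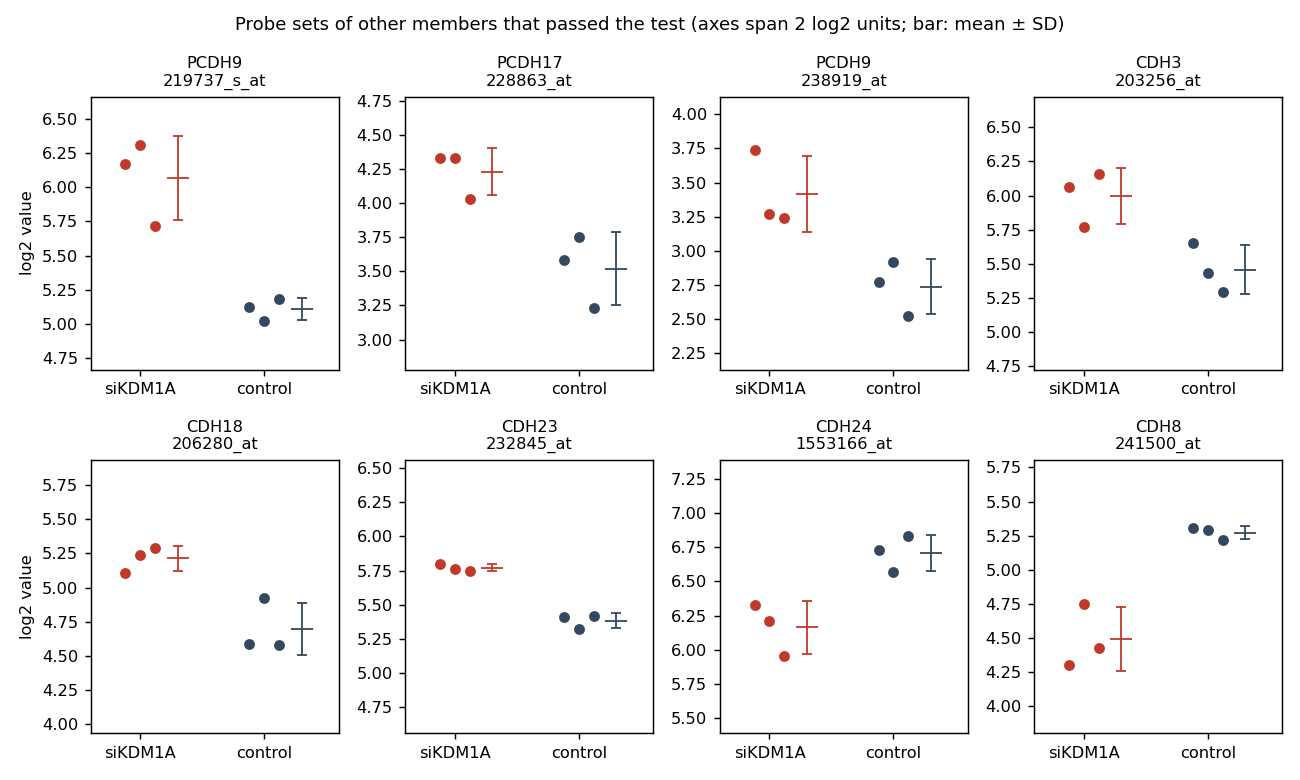
Log2 values (vertical axis, spanning 2 units in each panel) of the 8 called probe sets of members other than CDH6 on the 3 siKDM1A arrays (left) and 3 control arrays (right), with group mean and SD. The groups do not overlap in any panel; siKDM1A values are higher in the first 6 panels and lower in the last 2, CDH24 and CDH8.

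The clustered protocadherins lie together on chromosome 5. Their promoters are known to share a conserved element with a CGCT core, and stretches that hold it are shown for members described here, because the letters around the core were shared more often within a cluster than between clusters. Promoter windows of 300 bases, 250 before and 50 after a start site, were taken from RefSeq (GRCh38.p14) for 30 of the 36 clustered members. Words around the core were picked by counting in these windows, so their frequencies are a description. Capitals mark the word, all on the plus strand, 5′ to 3′. The first 3 are of the beta cluster, at chr5:141094545-141094574, chr5:141135180-141135209 and chr5:141223264-141223293, the next 3 of the alpha cluster, at chr5:140855843-140855871, chr5:140794783-140794811 and chr5:140821544-140821572, and the last 2 of the gamma cluster, at chr5:141402719-141402747 and chr5:141397868-141397896.
PCDHB2: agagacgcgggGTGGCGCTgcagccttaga
PCDHB5: taggacgcctgGTGGCGCTgcaggctaaga
PCDHB14: ggagacacatgGTGGCGCTacaggataaga
PCDHA10: aagccaccggaTGTCGCTgtcgtccacaa
PCDHA2: tagccacatgaTGTCGCTgtccaccatag
PCDHA5: catccacatgaTGTCGCTggacaccggaa
PCDHGA9: actctgagcgcCGCTGTTgatcaactcta
PCDHGB5: actctgggcgcCGCTGTTggccaaagtgc
On either strand the word GTGGCGCT was found in 12 of 13 beta members, all but PCDHB1, in no alpha or gamma member and in 1.15% of all 35116 windows. TGTCGCT was found in 3 of 6 alpha, 2 of 11 gamma and 1 of 13 beta members and in 1 member outside the clusters, against 1.76% of all windows. CGCTGTT was found in 7 of 11 gamma and 1 of 13 beta members and in 1 member outside the clusters, against 2.26% of all windows. All 3 words hold the letters CGCT, and CGCTGTT can overlap either of the others in 1 site, as it does with GTGGCGCT at PCDHB3. The median share of G and C was 42.0% in clustered windows, 54.3% in those of the other members and 58.7% in all windows.

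None of the 36 clustered genes passed, beside 3.45% higher and 5.46% lower over all genes, and none of their 48 probe sets passed. Another 2 probe sets, 210572_at and 210674_s_at, which name several genes of the alpha cluster and so no member, did rise (log2 fold changes 0.53 and 0.52, adjusted p = 0.0114 and 0.0389, limma). By limma 2 of the 36 members (5.56%) had an unadjusted p under 0.05, both higher, beside 9.75% higher and 14.4% lower over all genes. By the methods' ANOVA 4 (11.1%) did, all higher, beside 9.21% higher and 13.7% lower, and 0 passed after adjustment. Their fold changes were small and mostly of 1 sign: 30 of 36 were above 0, the median was 0.09, and the range ran from -0.10 to 0.36. The siKDM1A arrays lay wholly above the control arrays for 7 of 36 genes (19.4%), 6 of them in the beta cluster, and wholly below for 0. Over all genes these shares were 13.5% and 18.1%. Of the representing probe sets 5 were under the lower quartile on all arrays and 4 above the upper one, all 4 in the beta cluster. Whether signal level played a part in the missing calls was not tested. Of the 36 representing probe sets 11 carry the suffix _x_at and 6 the suffix _s_at, with which the manufacturer marks probes that can bind related transcripts, so single genes of these near-identical families are uncertain.

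The beta cluster gave the brightest of these signals. PCDHB5 read 9.63, 9.43 and 9.55 on the siKDM1A arrays, against 9.57, 9.40 and 9.55 on the control arrays. The groups lay on top of each other, and the log2 fold change of 0.03 had an interval from -0.18 to 0.24. PCDHB2 read 9.37, 9.29 and 9.21 in siKDM1A cells, against 9.28, 9.16 and 9.23 in control cells. Its interval, -0.13 to 0.26 around 0.07, was as narrow. PCDHB14 read 8.61, 8.46 and 8.15 in siKDM1A cells, against 8.04, 8.03 and 8.07 in control cells. Its control arrays were tight and its siKDM1A arrays spread upwards, with the largest fold change of the clustered genes (0.36, interval 0.09 to 0.63, adjusted p = 0.128, limma), and it passed without siKDM1A c (0.49, adjusted p = 0.0252, limma). Of 17 beta genes 16 had a fold change above 0.

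In the alpha cluster, PCDHA2 read 3.37, 3.25 and 3.48 on the siKDM1A arrays, against 3.06, 2.81 and 3.16 on the control arrays. The groups did not overlap, but every value lay below the lower quartile, and the log2 fold change of 0.35 did not pass (adjusted p = 0.116, limma). PCDHA10, PCDHAC1 and PCDHA5, the brightest 3 of the cluster, had log2 fold changes of 0.10, 0.01 and 0.05 with overlapping groups, and that of PCDHAC1 was -0.02 after median centring. In the gamma cluster, PCDHGB5 read 5.70, 5.68 and 5.74 in siKDM1A cells, against 5.76, 5.75 and 5.72 in control cells. Its log2 fold change was -0.03 with an interval from -0.21 to 0.15. PCDHGA9 and PCDHGB7 gave 0.17 and 0.06. The gamma cluster had 0 genes whose groups did not overlap, beside 13.5% of all genes wholly above and 18.1% wholly below. Of its 13 fold changes 8 were above 0.

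**Figure D4:**
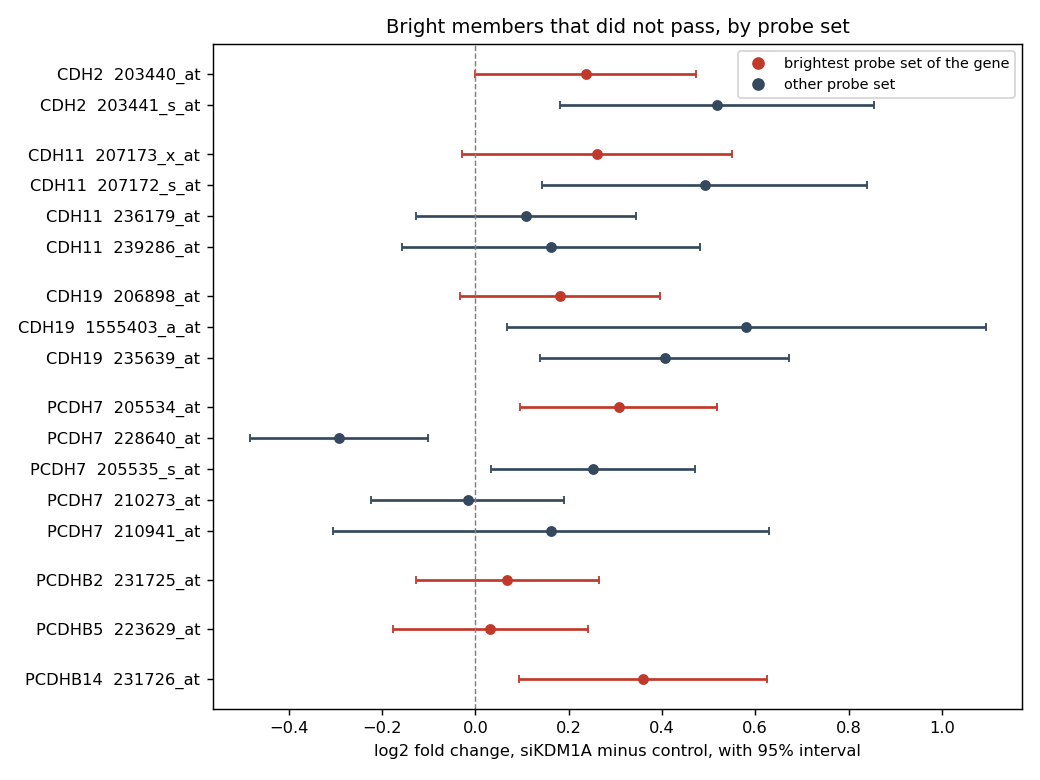
Log2 fold change (siKDM1A minus control, horizontal axis) with its 95% interval for every probe set of 7 of the brightest members that did not pass, red for the probe set that represents the gene. The intervals of PCDHB2 and PCDHB5 span 0, and PCDH7 has 1 probe set whose interval lies wholly below 0 and 2 whose intervals lie wholly above it.

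Classical and clustered members were set side by side. Of 17 classical cadherins, 3 rose (17.6%), 1 fell (5.88%) and 13 did not pass, against 0 of 36 clustered genes in either direction, beside 3.45% and 5.46% of all genes. Probe sets 210572_at and 210674_s_at, which name several genes of the alpha cluster and so no member, rose but are outside these counts. The median log2 fold change was 0.12 in the classical and 0.09 in the clustered members, a difference of 0.03 with an SD of 0.08 over the 3 siKDM1A arrays. It was 0.07 without siKDM1A c, 0.11 without control b, 0.09 without control c and 0.10 without dim probe sets, so its size rests on single arrays. Single classical genes reached farther from 0, from -0.55 to 0.73, than clustered ones. The median standard error was 0.11 in the classical and 0.10 in the clustered members, and 14 of 17 and 30 of 36 had a fold change above 0. The classes share all 6 arrays and their genes are not replicates, so the difference between them was not tested.

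The genes around the cadherins were taken from 7 lists set by role. In these lists 76 of 78 genes were measured, of which 1 rose, 4 fell and 71 did not pass, beside 3.45% and 5.46% of all genes, so the share that fell lay near that of all genes. Of the catenins that carry classical cadherins, those measured did not pass. CTNNB1, beta-catenin, read 11.93, 11.93 and 11.67 on the siKDM1A arrays, against 11.80, 11.89 and 11.84 on the control arrays. Its groups overlapped, with a log2 fold change of 0.00 and an interval from -0.22 to 0.22. CTNNA1, alpha-catenin, and JUP, plakoglobin, had log2 fold changes of -0.06 and -0.07 (adjusted p = 0.791 and 0.840, limma), and CTNND1, p120-catenin, had no probe set of its own. In the same list CTNNAL1, an alpha-catenin relative, fell by 0.53 on the log2 scale (adjusted p = 0.0111, limma) and 9 of 10 did not pass. None of 12 desmosomal genes, 17 other genes of the cadherin superfamily and 11 sheddases and turnover genes passed limma or the methods' ANOVA after adjustment, and 4, 0 and 2 of them had an unadjusted limma p under 0.05. Of all genes, 9.75% were higher and 14.4% lower at that unadjusted p.

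Of 8 repressors of CDH1, only TWIST1 passed. It read 8.20, 7.97 and 7.69 on the siKDM1A arrays, against 8.56, 8.52 and 8.68 on the control arrays. The groups did not overlap, and TWIST1 fell by 0.63 on the log2 scale (adjusted p = 0.0223, limma), whereas the list's median was 0.17. SNAI2 and ZEB2 lay on the other side, with log2 fold changes of 0.42 and 0.33 and groups that did not overlap, and neither passed (adjusted p = 0.0524 and 0.134, limma). Before adjustment 5 of the 8 had a limma p under 0.05, of which 2 were higher and 3 lower, beside 9.75% and 14.4% of all genes. Of 12 regulators of the clustered protocadherin genes 2 fell, 10 did not pass, and the median was -0.30, the lowest of the 7 lists. All 12 had fold changes below 0, where 51.7% of all genes were above 0, and 8 were lower at an unadjusted limma p under 0.05, beside 14.4% of all genes. Of the 12, 11 lay above the upper quartile on all arrays, and no comparison with genes of like level was made. CTCF, which loops protocadherin promoters to their enhancers, read 8.78, 8.89 and 8.70 in siKDM1A cells, against 9.18, 9.19 and 9.23 in control cells. RAD21, a cohesin subunit, read 11.13, 11.20 and 10.97 in siKDM1A cells, against 11.60, 11.50 and 11.49 in control cells. Both were lower on every siKDM1A array, by 0.41 and 0.43 on the log2 scale (adjusted p = 0.0257 and 0.0273, limma). Of 6 nectins and partners NECTIN3, an adhesion receptor that works beside cadherins, rose by 0.49 on the log2 scale (adjusted p = 0.0426, limma) and the other 5 did not pass. Each of these 5 list calls was lost in at least 1 fit that left out a single array. CTNNAL1 lost its call without control b or control c (adjusted p of 0.0511 and 0.0566), and TWIST1 without siKDM1A b or any control array (0.0581 to 0.105). Among these fits CTCF and RAD21 passed only without siKDM1A b and lost the call without each other array (0.0622 to 0.118 and 0.062 to 0.101), and NECTIN3 passed only without siKDM1A c (adjusted p of up to 0.137 in the others).

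**Figure D5:**
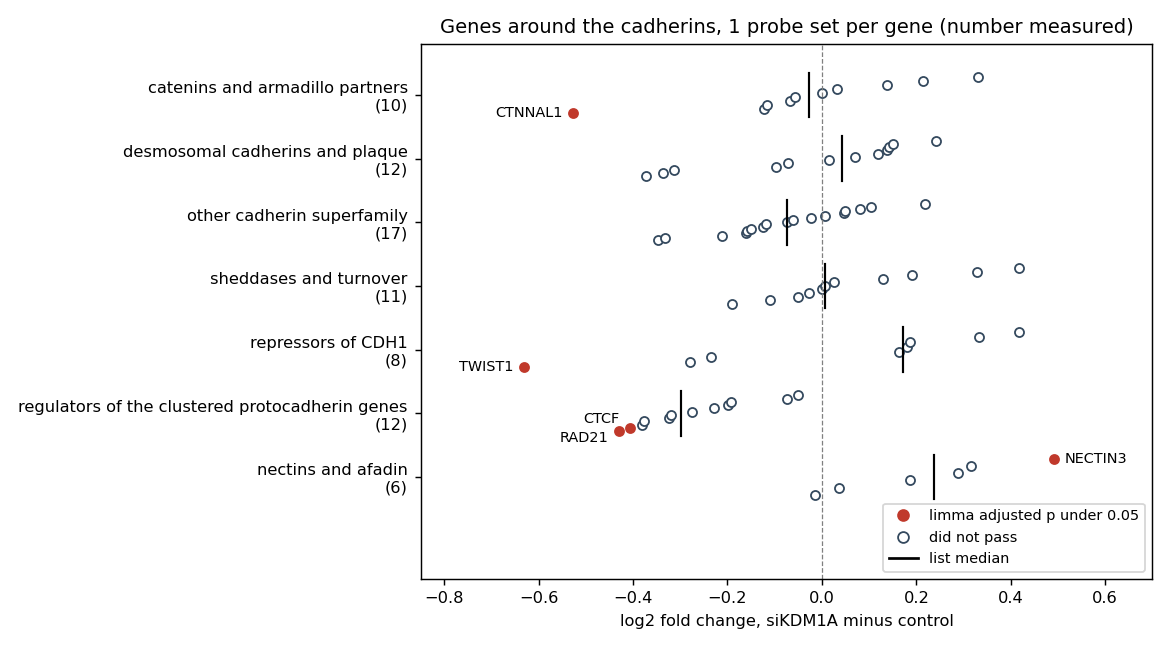
Log2 fold change (siKDM1A minus control, horizontal axis) of 76 genes around the cadherins, 1 probe set per gene, in 7 lists set by role (vertical axis, with the number measured). Filled and named points passed limma at an adjusted p under 0.05 and vertical lines are list medians, of which that of the regulators of the clustered protocadherin genes, -0.30, lies farthest from 0.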

How the data were processed

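RNA of 6 ONS-76 cultures, 3 siKDM1A and 3 control, was measured on Affymetrix U133 Plus 2.0 arrays. The log2 values of 54675 probe sets were deposited by the authors after RMA in the Partek Genomics Suite, of unstated version. Because RMA gives all arrays 1 common distribution, a shift shared by most genes is largely lost, and differences between dim signals are compressed. Background correction was not varied, since the scanner files were not used here. After 62 control probe sets were left out, 54613 were tested with limma 3.58.1 in R 4.3.3 (lmFit, eBayes, two-sided), with Benjamini-Hochberg adjustment over all of them and a threshold of 0.05. Sums and figures were made in Python 3.11.15. Gene names came from the platform annotation, and 1801 probe sets with several symbols and 11721 with none were not named. The steps were tested on simulated data. With 3 arrays per group, precision is limited by their number. The limma p-values rest on the spread between these cultures, which eBayes moderates with that of all probe sets tested.

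The members, the lists and the alternatives were chosen with earlier results of these data known. Named were every member with a called probe set, the 3 brightest of each class, the 3 uncalled members with the largest fold change, up to 4 called genes of each list, CTNNB1, CTNNA1, CTNND1, JUP, KDM1A and KDM5A; other names were added after their values were seen. The array letters a, b and c were checked by correlation over all probe sets and were not used as pairs. As alternatives, the fit was repeated after median centring or cyclic loess, without dim probe sets, with an intensity trend and robust prior, with a replicate block, without each array in turn, by the methods' ANOVA, with 2 other rules for the probe set of a gene and at 2 other thresholds.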

Additional observations from a re-analysis of the deposited data

Results flagged for a closer look

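Of the probe sets that name several genes with at least 1 cadherin or protocadherin symbol, and so name no member, 12 were examined, and 3 were higher in siKDM1A cells on limma's test. They are listed because they hold a signal outside the comparison of members. Probe set 232054_at, whose annotation joins 2 symbols, read 8.06, 8.30 and 8.06 on the siKDM1A arrays, against 7.33, 7.60 and 7.56 on the control arrays (log2 fold change 0.64, adjusted p = 0.0102, limma). Probe set 210572_at, with 2 symbols of the alpha cluster, had a log2 fold change of 0.53 (adjusted p = 0.0114, limma). Probe set 210674_s_at, with 15 symbols of the alpha cluster, had a log2 fold change of 0.52 (adjusted p = 0.0389, limma). On all 3 the groups did not overlap. A further 9 did not pass, among them 223435_s_at, also with 15 symbols of the alpha cluster (0.22, adjusted p = 0.195, limma). Which transcripts gave these signals was not tested.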

How the results depend on the processing

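The fall of KDM1A and the sign of the classical-minus-clustered median kept their side under every alternative run. No clustered member, each named alone by its probe sets, passed under any of them except PCDHB14 without siKDM1A c. The size of that median difference, 0.0316, ranged from 0.027 to 0.107 over them. The count of members that rose was 5 after median centring and cyclic loess, 7 without dim probe sets, with an intensity trend and robust prior or by gene means, and 2 at an adjusted p under 0.01 or over 1.5-fold, where 0 fell. With the replicate block 3 members rose and 0 fell, and 0 list genes rose. By the methods' ANOVA, 1 member rose and 0 fell, 0 list genes rose and 0 fell, and 275 probe sets were higher and 401 lower over the whole array. Without single arrays, 2 to 4 members rose and 0 or 1 fell, and 609 to 1103 probe sets were higher and 694 to 1563 lower. Fold changes near 0 changed sign, none of them called: PCDHAC1 was -0.0183 after median centring, -0.0083 after cyclic loess, -0.0321 by gene means and -0.0719 to 0.118 without single arrays. Likewise, without single arrays PCDHA5 ranged from -0.0299 to 0.104, PCDHB5 from -0.0202 to 0.0833, PCDHGB7 from -0.0079 to 0.168 and CDH26 from -0.0654 to 0.0195. Of the named members' other values, 418 kept direction and call, 38 lost the call and 8 gained one; beyond what fewer arrays and another test explain by their construction, the cause was not tested.

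The letters a, b and c were tested as pairs by the correlation of their deviations from the group means, which was 0.11, 0.23 and -0.13, so they were not used as pairs. A correlation over all probe sets cannot exclude shifts that single probe sets share by letter. On CDH2 203441_s_at, CDH6 210602_s_at and CDH19 1555403_a_at, letter a was lowest and letter b highest in both groups. On CDH6 205532_s_at, letter c was lowest in siKDM1A cells and highest in control cells. A pairing of these probe sets by letter was not tested. For signals below the lower quartile, such as those of CDH9, CDH12, CDH17, PCDH8 and PCDH15, a difference is harder to detect. PCDH9 probe set 238919_at passed from control values below that quartile. That call was lost without siKDM1A a, control a or control c, and by the methods' ANOVA (adjusted p = 0.228, ANOVA).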
